A study of Homo sapiens with 28 samples.

Results

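TWIST1 ChIP-seq peaks of the colorectal cancer lines MDST8 and LoVo met at the promoters of 3013 of 19968 protein-coding genes (15.1%). The promoters were selected on the peak lists themselves. Each lay within 1000 bp of a gene's 5′ end and was overlapped by at least 1 listed peak in each line, so the peak values given for them are a description without a test. The genes with these promoters were transcribed more often than other genes in both lines, though genes with a peak in MDST8 only came close to them. In none of 6 comparisons of TWIST1-targeted with control cells was the share of these genes that changed far from that of all protein-coding genes.

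ChIP-seq with a TWIST1 antibody was made from wild type cells of each line, with 1 library and 1 peak list per line and no replicate. RNA-seq covered 18 MDST8 libraries, 3 of wild type (WT) cells and 3 of each of 5 clones that had been grown from single cells after CRISPR-Cas9 cutting of TWIST1, called TG1_1, TG2_2, TG3_2, TG3_5 and TG3_6 here. The last 3 of these share the label TG3. It also covered 6 LoVo libraries, 3 labelled shRNA control and 3 labelled TWIST1 shRNA. No source used here says that the 3 libraries of a group came from separate cultures, so their p-values measure the spread between libraries, and a clone is a single isolate.

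TWIST1 is a basic helix-loop-helix transcription factor that binds DNA as a dimer at E-boxes, short sites of the form CANNTG, of which CATATG is a form it is known to prefer along with the form CATCTG. It directs mesoderm and neural crest development, and in carcinoma it is known as a driver of epithelial-to-mesenchymal transition (EMT), in which epithelial cells give up their junctions and gain motility. A promoter is the stretch around the 5′ end of a gene where transcription starts. Many promoters of widely used genes are rich in CpG dinucleotides, and closely spaced genes that point away from each other often share such a stretch.

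Total counts per RNA library ran from 16567606 to 22217009. MDST8 WT cells had 797 to 1034 TWIST1 counts per library, and the clones 553 to 1195. The TWIST1 transcript was called lower in TG2_2 alone (log2 fold change −0.65 ± 0.07 SE, adjusted p = 2.37e-09, edgeR quasi-likelihood test), and that call was lost without WT replicate B, where it was −0.53. In LoVo the counts ran against the labels: no TWIST1 count was found in any library labelled shRNA control, where 3 counts would have been 0.148 to 0.181 CPM, the counts scaled to a common library size, and 73 to 93 counts were found in the libraries labelled TWIST1 shRNA. Directions in LoVo are therefore those of the labels only. The absence of TWIST1 counts under the control label also bears on the LoVo peak list, which was made from wild type cells. Whether its peaks mark bound TWIST1 was not tested. Mitochondrial genes took 3.49 to 3.96% of counts under the control label and 5.47 to 10.9% under the TWIST1 shRNA label, and the part of this difference in the LoVo results was not tested. All 7 epithelial markers examined (CDX2, VIL1, EPCAM, KRT8, KRT18, KRT20 and CDH1) were lower in MDST8 WT than in LoVo control. KRT18 was still at 61.2 ± 2.19 CPM and KRT8 at 11.2 ± 1.18 CPM in MDST8 WT, while the other 5 were below 1 CPM there, with EPCAM at 576 ± 24.3 (SD, n = 3) CPM in LoVo control and 0.0339 ± 0.0293 CPM in MDST8 WT, and CDH1 at 268 ± 3.19 and 0 CPM. VIM, an intermediate filament of mesenchymal cells, was at 108 ± 2.17 and 3492 ± 102 CPM.

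The sequences below come from the parts of member promoters where a LoVo peak and an MDST8 peak lay on the same bases. For each, the longest run without bases annotated as UTR is printed, cut to its middle 300 bp where it was longer. Some are therefore only a part of the shared bases, such as 300 of 583 bp for CCDC71 and 132 of 250 bp for ACTR3C. Each CANNTG site is in capitals. All are read from hg38 on the strand of the gene, 5′ to 3′. The first 4 belong to promoters that were among the 10 with the strongest peaks in both lists, the next to a pair of genes that share a peak, and the rest to genes whose RNA changed in every clone or to a known EMT factor. The stretch need not lie under the best peaks. That of CCDC71 is under an MDST8 peak other than its best, and that of NAA30 under a LoVo peak other than its best.
CCDC71, chr3:49165545-49165844 (minus strand): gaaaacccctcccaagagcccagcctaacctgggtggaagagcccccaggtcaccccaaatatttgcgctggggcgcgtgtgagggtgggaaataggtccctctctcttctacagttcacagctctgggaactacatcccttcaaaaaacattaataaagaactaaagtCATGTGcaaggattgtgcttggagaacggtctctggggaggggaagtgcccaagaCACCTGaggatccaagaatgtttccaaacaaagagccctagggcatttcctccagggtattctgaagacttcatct
NAA30, chr14:57389817-57390116 (plus strand): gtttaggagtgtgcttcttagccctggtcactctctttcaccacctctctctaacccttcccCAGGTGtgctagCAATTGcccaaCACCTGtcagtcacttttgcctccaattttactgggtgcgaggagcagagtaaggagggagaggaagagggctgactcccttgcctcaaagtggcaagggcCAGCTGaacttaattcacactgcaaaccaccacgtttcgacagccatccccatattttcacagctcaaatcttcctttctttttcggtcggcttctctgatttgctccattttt
PRELID3B, chr20:59043292-59043539 (minus strand): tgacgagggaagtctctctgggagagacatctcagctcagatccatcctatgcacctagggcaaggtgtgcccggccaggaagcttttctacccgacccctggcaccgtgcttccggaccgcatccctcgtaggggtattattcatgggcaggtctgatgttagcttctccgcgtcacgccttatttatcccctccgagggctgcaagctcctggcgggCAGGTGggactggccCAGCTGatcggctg
GTSE1, chr22:46296098-46296397 (plus strand): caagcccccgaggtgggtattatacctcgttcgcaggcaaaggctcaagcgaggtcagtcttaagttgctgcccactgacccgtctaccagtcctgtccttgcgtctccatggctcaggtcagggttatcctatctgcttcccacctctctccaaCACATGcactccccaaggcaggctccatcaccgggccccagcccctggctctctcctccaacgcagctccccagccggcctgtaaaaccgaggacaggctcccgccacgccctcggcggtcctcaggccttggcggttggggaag
HS2ST1, chr1:86915037-86915198 (plus strand): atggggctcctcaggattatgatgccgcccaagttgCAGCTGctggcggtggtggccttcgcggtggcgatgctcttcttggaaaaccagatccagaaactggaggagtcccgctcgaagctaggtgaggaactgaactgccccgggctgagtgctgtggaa
ABCG2, chr4:88231640-88231855 (minus strand): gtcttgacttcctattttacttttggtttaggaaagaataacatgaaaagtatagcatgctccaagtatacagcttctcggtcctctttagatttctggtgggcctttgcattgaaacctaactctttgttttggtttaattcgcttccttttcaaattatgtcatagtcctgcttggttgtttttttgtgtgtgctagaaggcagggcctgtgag
ACTR3C, chr7:150324419-150324550 (minus strand): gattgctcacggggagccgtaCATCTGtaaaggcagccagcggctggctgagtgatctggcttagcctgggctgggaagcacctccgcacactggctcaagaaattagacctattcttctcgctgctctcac
ZEB1, chr10:31318680-31318922 (plus strand): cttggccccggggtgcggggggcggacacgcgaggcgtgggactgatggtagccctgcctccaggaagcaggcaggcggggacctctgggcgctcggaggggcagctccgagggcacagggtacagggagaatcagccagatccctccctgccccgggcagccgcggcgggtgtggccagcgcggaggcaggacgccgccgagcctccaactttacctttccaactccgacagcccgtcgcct

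The NAA30 stretch, at −727 to −428 bp from the 5′ end and outside annotated transcripts, held 4 E-boxes, and 2 of them were CACCTG on either strand. The ABCG2 and ZEB1 stretches held none. Among the printed stretches, a CATCTG site was present only in that of ACTR3C. It lay at −825 to −694 bp from the 5′ end of ACTR3C and within the annotated genes LRRC61 and ZBED10P. Shared bases that were cut off are not part of these counts. At the same place as the ACTR3C stretch relative to the 5′ end, 7.48% of all 19968 promoters held a CATCTG on either strand, and 46.1% held some CANNTG. For NAA30 the share of all promoters with a CANNTG at the same place was 73.8%. The CCDC71 stretch lay inside the gene, 487 to 786 bp downstream of its 5′ end, outside exons, while that of HS2ST1 lay 402 to 563 bp downstream and included coding bases of HS2ST1. The GTSE1 stretch held exon bases of GTSE1-DT, a divergent noncoding gene. These matches describe letters in a window, and say nothing of whether a site was bound.

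SPON2, which encodes a secreted matrix protein, was a member through 2 LoVo peaks and 1 MDST8 peak. The bases of the window common to both lines held too short a run without annotated UTR and are not printed. The MDST8 peak was weak (uncorrected MACS2 p of 0.00739). Its summit lay at 1181 bp from the 5′ end, outside the window, and it covered 181 bp of the window. The whole SPON2 window held 2 CATCTG sites on either strand, none of them in the stretch below. The study reported TWIST1 binding by ChIP-qPCR in MDST8 at an upstream CATCTG, and activation of a mouse Spon2 promoter reporter by TWIST1. Whether that site is among those counted here was not examined. The strongest LoVo peak of SPON2 lay upstream, with a q of 0.751, and is shown because SPON2 is the gene the study followed.
SPON2, chr4:1209266-1209509 (minus strand): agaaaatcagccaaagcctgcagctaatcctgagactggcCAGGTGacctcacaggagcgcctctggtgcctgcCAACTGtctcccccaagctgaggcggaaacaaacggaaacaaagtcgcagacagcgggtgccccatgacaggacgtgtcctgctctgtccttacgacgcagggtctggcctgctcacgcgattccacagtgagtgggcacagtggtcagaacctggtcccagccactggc

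Few of the peaks behind membership passed a correction for multiple tests. Fold enrichment over the local background at the best peak of each promoter had a median of 2.34 in LoVo (range 1.36 to 6.17) and 2.46 in MDST8 (range 1.65 to 7.78). The median p of these peaks was 0.00327 in LoVo and 0.00297 in MDST8, where the authors had kept peaks below 0.05. A q-value of at most 0.05 was reached at 22 of the 3013 promoters in LoVo and at 16 in MDST8, and at 0 in both. Promoters with a peak in a single list had nearly the same values, with a median fold enrichment of 2.34 for LoVo only and 2.46 for MDST8 only.

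**Figure D1:**
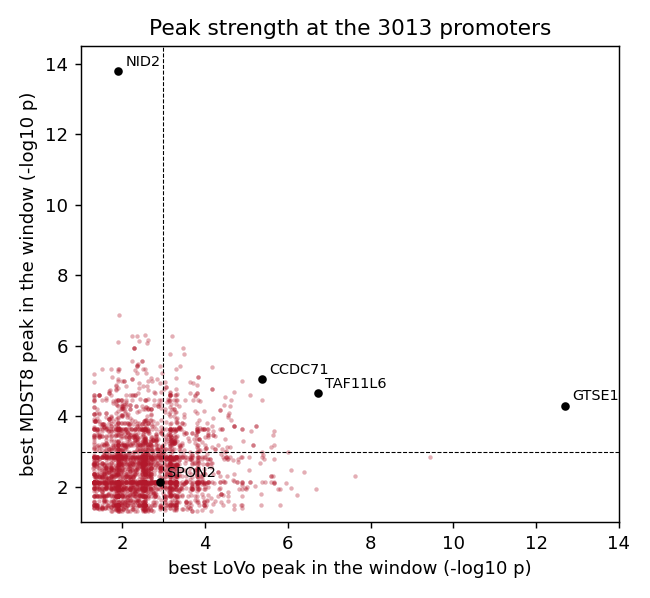
Strength of the best peak of each of the 3013 promoters, as −log10 of its p in LoVo (x axis) and in MDST8 (y axis), with dashed lines at 0.001 and named genes in black. Most points lie below both lines, GTSE1 stands out in LoVo alone and NID2 in MDST8 alone, and 269 promoters lie past both lines.

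A p of at most 0.001 was reached at 851 promoters in LoVo and at 876 in MDST8, and at 269 in both. GTSE1, a regulator of G2 and mitosis on chromosome 22, had the strongest LoVo peak (chr22:46295021-46296673, 6.17-fold, q = 3.81e-08), while its MDST8 peak reached 3.31-fold with q = 0.274. NID2, a basement membrane protein on chromosome 14, showed the reverse, with −log10 p of 13.8 in MDST8 and 1.90 in LoVo. The LoVo peak of GTSE1 reached into the window, but its summit was at −1650 bp from the 5′ end, outside the window. By the weaker of the 2 lines the first promoter was that of CCDC71 (ENSG00000177352.10), with a p of 4.21e-06 for the LoVo peak chr3:49165403-49165985 and of 8.82e-06 for the MDST8 peak chr3:49166412-49167082. It was followed by NAA30, the catalytic subunit of an N-terminal acetyltransferase, PRELID3B and TAF11L6. PAFAH2, STAP2, SEPTIN4, CEP83, USP17L11 and GTSE1 completed the 10. TAF11L6 and USP17L11 belong to families of near-identical copies, so that the place of their reads is uncertain, and neither had a count in MDST8 WT or LoVo control. Of the other 8, only SEPTIN4 was below 1 CPM in MDST8 WT (0.174 CPM), and it was at 3.91 CPM in LoVo control.

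A peak in each line was often not at the same bases. In 1402 of the 3013 promoters (46.5%) a LoVo and an MDST8 peak that reached the window shared bases, with a median of 225 bp in common. Shared bases were counted over whole peaks, so some lay outside the window. SPON2 had 411 bp in common, while its MDST8 peak covered 181 bp of the window. The best summits of the lines, the points of highest pileup, were a median of 675 bp apart (quartiles 281 and 1173 bp) and lay within 100 bp of each other in 315 promoters (10.5%). In NAA30 the best LoVo summit was at 945 bp and the best MDST8 summit at −853 bp from the 5′ end. Another LoVo peak of NAA30 nonetheless shared 343 bp with its MDST8 peak. In HS2ST1 the summits lay 490 and 486 bp downstream.

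The count of members can be set beside the size of each list. A LoVo peak was present at 6116 promoters (30.6%) and an MDST8 peak at 9354 (46.8%), and the product of these shares is 2865 promoters, against the 3013 seen. Of promoters with an MDST8 peak 32.2% also had a LoVo peak, and of those without an MDST8 peak 29.2% did. At the edge of the rule, DGAT1, HIVEP3 and KIF2B were members through 2 bp of an MDST8 peak, and BRAP, C1orf122 and GPRC5A had an MDST8 peak but missed membership by 1 bp in LoVo. In all, 364 members had no more than 100 bp covered in a list, and 319 other promoters lay no more than 100 bp outside. TWIST1 itself had 2 MDST8 peaks and no LoVo peak in its promoter and is not a member.

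The lines placed their summits differently around the 5′ end. Among LoVo summits in member windows, the 100 bp just upstream of the 5′ end held 2.53%, the lowest of the 20 bins of 100 bp, and the bin 700 to 600 bp upstream held 6.01%, the highest. Among MDST8 summits the bin just upstream held 5.61%, and the bins ranged from 4.0 to 6.23%. The best summit was inside the window at 2488 members (82.6%) in LoVo and at 2610 (86.6%) in MDST8, and outside it at the rest. Of the best summits inside the window, 19.3% lay within 250 bp of the 5′ end in LoVo and 26.7% in MDST8. Promoters with a LoVo peak only had 22.2% within 250 bp, and those with an MDST8 peak only 27.8%. Upstream and downstream were about equally used, with 48.8% of these summits upstream in each line.

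**Figure D2:**
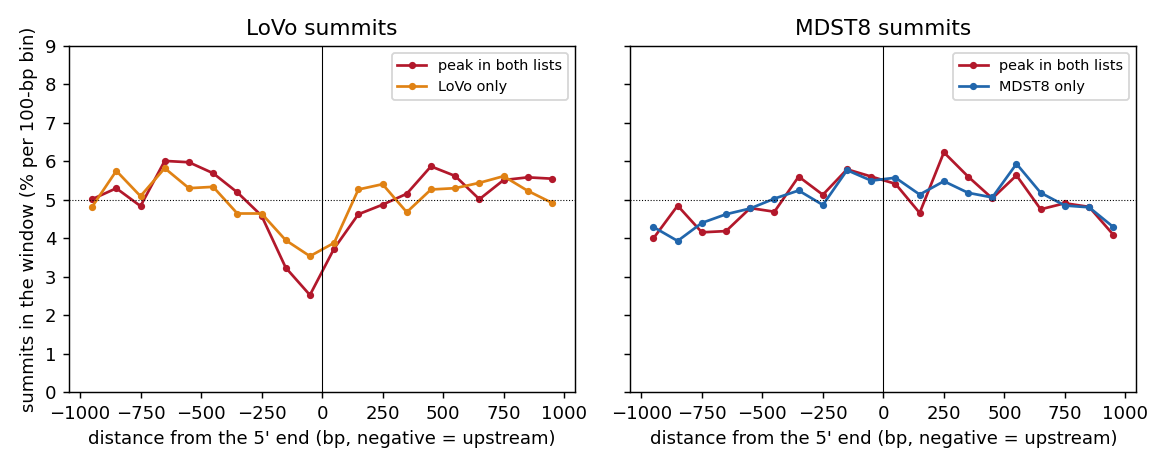
Peak summits by distance from the 5′ end in bp (x axis, negative is upstream), as the percent of all summits in the windows per 100-bp bin (y axis), for LoVo (left) and MDST8 (right). The dotted line at 5 is an even spread. LoVo summits of promoters with peaks in both lists fall to 2.53% just upstream of the 5′ end, while MDST8 summits stay between 4.0 and 6.23%.

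E-boxes of the general form were about as frequent at these summits as at the same distances from the 5′ ends of all promoters, while the shares for CATATG were lower, a difference that was not tested. Within 50 bp of the summit, 34.1% of 2371 member promoters held a CANNTG in LoVo, beside 34.2% of all promoters at the same offsets, and 35.2% of 2508 held it in MDST8, beside 33.7%. CATCTG on either strand was found in 4.81% beside 5.40% in LoVo and in 4.98% beside 5.26% in MDST8. CATATG, which reads the same on both strands, was found in 0.675% beside 1.10% and in 0.279% beside 1.03%, while promoters with an MDST8 peak only had 0.922% beside 1.03%. CACCTG on either strand, the E-box form bound by the EMT factors ZEB1 and SNAI1, was found in 10.3% beside 9.40% and in 10.9% beside 9.27%. All these forms are also counted as E-boxes of the general form. Over the whole window of 1000 bp to either side, 64.1% of members held a CATCTG, beside 65.5% of all promoters.

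Members were richer in CpG than promoters in general. Their median GC was 56.8%, beside 55.0% for all promoters, and the median ratio of observed to expected CpG was 0.654, beside 0.614. A ratio of at least 0.6 with a GC of at least 50% was found in 57.1% of members, in 54.8% of promoters with an MDST8 peak only, in 42.7% with a LoVo peak only and in 38.7% with neither. Of these classes, promoters with an MDST8 peak only were nearest to the members.

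The distance to the next gene was shorter for members. The nearest other protein-coding 5′ end was a median of 20768 bp away, beside 21509 bp for MDST8 only, 25541 bp for LoVo only and 26218 bp for neither. A divergent pair, in which another protein-coding gene starts within 1000 bp upstream and runs the other way, was present at 345 members (11.5%). The share was 9.78% for MDST8 only, 8.57% for all promoters and 6.83% for those with neither peak. Such a partner has nearly the same window, and 323 of the 345 had a partner that was also a member. In 319 the partners shared a peak in both lists, so that the peaks of these genes are not separate observations. After merging of overlapping windows the 3013 promoters made up 2681 separate regions.

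Of the divergent pairs that shared a peak in both lists, 5 are named, ranked by the best peaks in the window of either partner. HS2ST1, a heparan sulfate sulfotransferase, and SELENOF, a selenoprotein of the endoplasmic reticulum, start 211 bp apart and were at 54.9 ± 1.7 and 81.6 ± 2.6 CPM (SD, n = 3) in MDST8 WT. TACC3, a protein of the mitotic spindle, and SLBP, which binds the stem-loop of histone mRNAs, start 514 bp apart and were at 287 ± 4.8 and 154 ± 7.7 CPM. RNF123 and MST1 start 37 bp apart, and their levels per exon length were 4.81 RPKM for RNF123 and 0.795 RPKM for MST1. FBH1, a DNA helicase, and ANKRD16 start 297 bp apart, and STAP2 and MPND 741 bp apart. The LoVo peak that STAP2 and MPND share was weak (1.59-fold, uncorrected MACS2 p of 0.0474), and the pair was ranked by another LoVo peak of STAP2 outside the window of MPND. The CPM values are not scaled by gene length and do not compare genes with each other. Partners did not always move together: MST1 was called higher in 4 of the 5 clones, by up to 1.58 on the log2 scale, while RNF123 was called in none and had log2 fold changes of 0.24 to 0.45. Strand was not used in counting, and 15.7% of the exon bases of RNF123 and 7.44% of those of MST1 overlap other genes, so the place of some reads is uncertain.

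Some members were neighbours. When protein-coding genes are ordered along the chromosomes, 424 members lay in runs of 3 or more. Overlapping windows and shared peaks make part of such runs automatic, and runs were not counted for other promoters. The longest run had 6 genes on chromosome 3, among them QRICH1, QARS1, USP19, LAMB2 and CCDC71, and a run of 5 on chromosome 19 was the apolipoprotein cluster APOE, APOC1, APOC4, APOC4-APOC2 and APOC2. These runs were named after their members were seen. The share of promoters that were members ran from 13.9 to 19.5% on the autosomes, highest on chromosomes 13 (19.5%) and 20 (19.4%), and was 5.82% on chromosome X. On X an MDST8 peak was present at 19.8% of promoters and a LoVo peak at 26.4%. The number of copies of each chromosome in these lines was not measured here.

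The genes behind these promoters were more often transcribed than other genes. A mean of at least 1 CPM was reached by 2142 of the 3013 (71.1%, 95% exact binomial interval 69.4 to 72.7) in MDST8 WT and by 2183 (72.5%, 70.8 to 74.0) in LoVo control. In MDST8 WT the share was 68.2% for promoters with an MDST8 peak only, 55.4% with a LoVo peak only and 48.3% with neither. In LoVo control it was 68.1%, 57.7% and 51.2% in the same order. The order is the same in both lines, and a LoVo peak alone went with a lower share than an MDST8 peak alone in LoVo cells too. These intervals cover the sampling of genes only and treat divergent partners as separate.

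Levels scaled by exon length gave the same picture. The median RPKM of members was 3.12 in MDST8 WT and 3.28 in LoVo control, beside 1.16 and 1.49 for all protein-coding genes and 0.168 and 0.314 for those with neither peak. For genes with an MDST8 peak only it was 2.68 and 2.66, nearer to the members. No count in either group was found for 242 members (8.03%), beside 9.92% of genes with an MDST8 peak only and 20.2% with neither peak. CpG content moved with this difference. Among CpG-rich windows as defined above, 85.5% of members, 82.8% of genes with an MDST8 peak only and 70.4% with neither reached 1 CPM in MDST8 WT. Among the other windows the shares were 51.9%, 50.5% and 34.4% in the same order. Within divergent pairs they were 83.8%, 79.8% and 80.3%.

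**Figure D3:**
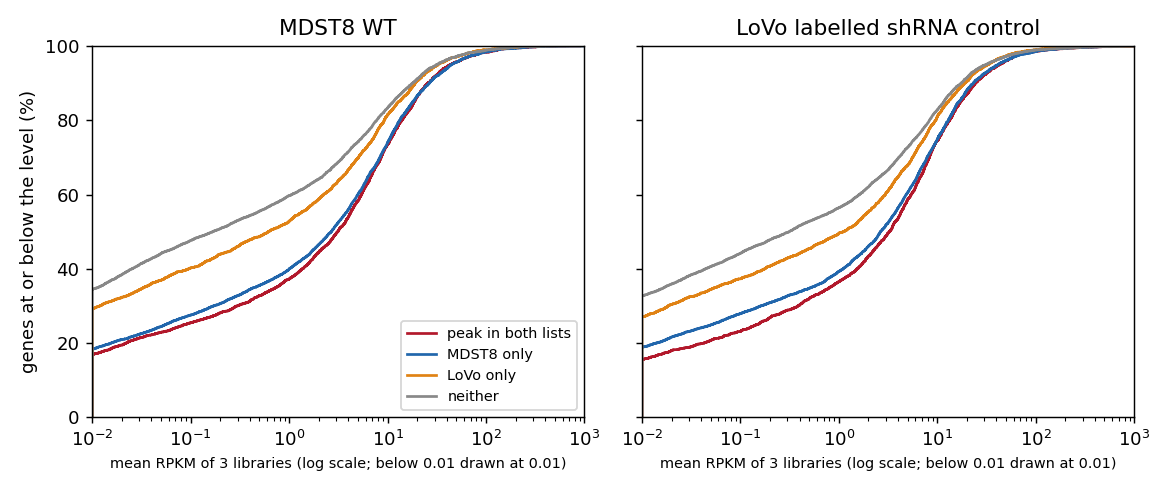
Cumulative share of genes (y axis, %) at or below a mean RPKM (x axis, log scale, mean of 3 libraries) in MDST8 WT and LoVo labelled shRNA control, for promoters with peaks in both lists, in a single list or in neither. The curves of genes with peaks in both lists and in MDST8 only lie lowest, which means higher levels, and that of genes with neither lies highest in both lines.

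Read the other way, 10.7% of genes below 1 CPM in MDST8 WT were members, beside 16.7% at 1 to 10 CPM, 18.6% at 10 to 100 CPM and 18% at 100 CPM or more. The share with an MDST8 peak rose from 35.4% to 56.7% from the lowest to the highest of these classes, and that with a LoVo peak was 27.7% and 30.8%. In LoVo control the share with a LoVo peak was 27.3% below 1 CPM and 32.3% at 100 CPM or more.

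By level per exon length, the leading members differed between the lines. In MDST8 WT they included the metallothionein MT2A at 640 RPKM, the ferritin heavy chain FTH1 at 501, and the ribosomal protein genes RPL8 at 478 and RPL41 at 393. In LoVo control they were RPL13A at 1643 RPKM, RPL41 at 1323, RPL8 at 1158, the ATP synthase subunit ATP5F1B at 1088 and the keratin gene KRT8 at 635. KRT8 was at 1.63 RPKM in MDST8 WT and MT2A at 14 RPKM in LoVo control, so that peaks in both lines were listed at promoters of genes whose level differed widely between the lines. The 5′ end used for KRT8 is its outermost annotated one, 1083 bp from that of KRT18, and whether transcription started there was not examined. Near-identical copies of FTH1 and of the ribosomal protein genes exist in the genome, and 63.2% of the exon bases of FTH1 overlap other genes, so these levels are uncertain.

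Whether the genes respond to loss of TWIST1 was asked with the RNA of the clones and of the LoVo libraries. Of the 3013 members, 2160 were tested in MDST8 and 2239 in LoVo, 2055 of them in both, and 669 passed the filter on low counts in neither. A gene was called at an adjusted p below 0.05 and an absolute log2 fold change above 0.58 (edgeR quasi-likelihood test). The 5 clones share their WT libraries and are not independent of each other.

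Members changed about as often as all protein-coding genes tested. In TG1_1 223 members were called higher (10.3%, beside 11.4% of all) and 156 lower (7.22%, beside 7.28%). In TG2_2 129 were called higher (5.97%, beside 7.23%) and 143 lower (6.62%, beside 6.48%). In TG3_2 197 were called higher (9.12%, beside 10.4%) and 129 lower (5.97%, beside 5.83%). In TG3_5 201 were called higher (9.31%, beside 10.0%) and 152 lower (7.04%, beside 7.10%). In TG3_6 308 were called higher (14.3%, beside 14.6%) and 244 lower (11.3%, beside 11.2%). In the LoVo libraries labelled TWIST1 shRNA 551 were called higher (24.6%, beside 24.9%) and 575 lower (25.7%, beside 26.3%). The median log2 fold change of members lay between −0.03 and 0.00 in all 6 comparisons, and that of all protein-coding genes tested between −0.02 and 0.00. Shares this near to the background are not a result about the members.

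**Figure D4:**
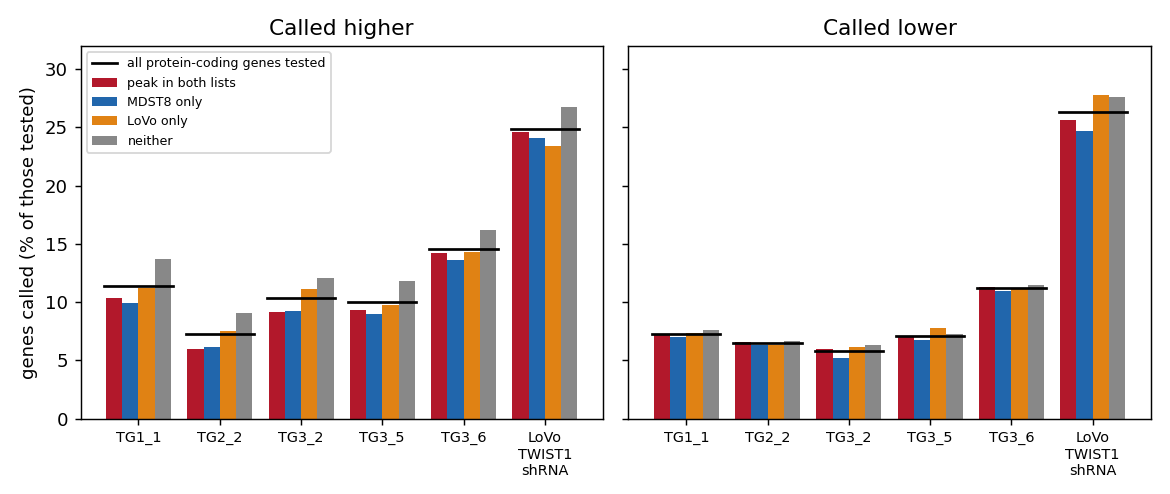
Percent of tested genes called higher (left) and lower (right) in each clone against WT and in LoVo labelled TWIST1 shRNA against labelled control, by promoter class (bars), with a black line for all protein-coding genes tested. The bars of promoters with peaks in both lists lie close to the line in each comparison, from 5.97% beside 7.23% in TG2_2 (higher) to 7.04% beside 7.10% in TG3_5 (lower).

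Some single members changed strongly in the clones. These were named as the 8 highest and 8 lowest by their smallest change among members called the same way in all 5 clones. LGALS9, the gene of galectin-9, a carbohydrate-binding immune regulator, was at 0.533, 0.508 and 0.407 CPM in the 3 WT libraries and at 3.17 to 18.1 CPM in the 15 clone libraries, with log2 fold changes of 2.94 to 5.14. RGS16, a regulator of G protein signalling, was at 1.12, 0.559 and 0.610 CPM in WT and at 3.31 to 10.5 CPM in the clones. ROR1, a receptor tyrosine kinase-like protein of WNT5A signalling, was at 0.213, 0.102 and 0.203 CPM in WT and at 0.373 to 5.02 CPM in the clones. For these 3 genes each clone library was above each WT library. They were picked for their change, so this separation is no further result, and the share of all genes that separate was not counted. The WT values of ROR1 were near the floor, as 3 counts were 0.152 to 0.16 CPM in the WT libraries.

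The other members that were called higher included matrix and adhesion genes. ITGA11, an integrin that binds collagen, was at 2.83, 2.29 and 2.24 CPM in WT and 7.18 to 41.8 CPM in the clones. COL22A1, a collagen, was at 1.6, 1.63 and 1.17 CPM in WT and at 3.23 to 47.4 CPM in the clones, highest in TG3_6, where the log2 fold change was 4.96, and lowest in TG3_5, where it was 1.5. The metalloprotease gene ADAMTS10 had log2 fold changes of 1.68 to 2.94, and MANSC4 of 1.41 to 2.43. UBA7, the enzyme that starts conjugation of ISG15, was the most even of these 8, at 5.17, 4.72 and 5.08 CPM in WT and 12.8 to 18.2 CPM in the clones, with log2 fold changes of 1.5 to 1.75.

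Of the members called lower, FBLN5, the gene of the elastic fibre protein fibulin-5, came first by its smallest change over the clones. It was at 9.01, 8.94 and 8.90 CPM in WT and at 0 to 1.06 CPM in the clones, with log2 fold changes of −3.34 ± 0.25 SE in TG3_5 to −5.52 ± 0.32 in TG3_6. The potassium channel subunit gene KCNG3 had log2 fold changes of −2.19 to −1.0 and GABBR2, a subunit of the GABA-B receptor, of −2.95 to −0.99. The drug efflux transporter ABCG2 was at 5.28, 5.59 and 4.12 CPM in WT and 1.73 to 3.05 CPM in the clones. CDKN3, a phosphatase that acts on cyclin-dependent kinases, was at 41.0, 39.3 and 37.3 CPM in WT and 17.6 to 22.9 CPM in the clones. F3, the gene of tissue factor, which starts blood clotting, was at 6.08, 6.91 and 7.73 CPM in WT and 2.00 to 4.28 CPM in the clones. IRS2, an adaptor of the insulin receptor, had log2 fold changes of −1.0 to −0.73, and CDCA7, a partner of a chromatin remodeller, of −0.91 to −0.72.

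Of these 16 genes 12 were tested in LoVo, where 24.9% of all protein-coding genes tested were called higher and 26.3% lower. By the labels, 5 of the 12 were called in the direction seen in the clones, 3 in the other direction, and 4 were not called. The first 5 were ROR1 (log2 fold change 1.01), ADAMTS10 (2.68), ABCG2 (−3.24), CDKN3 (−0.74) and IRS2 (−1.26), and those not called were RGS16 (0.57), FBLN5 (0.16), KCNG3 (0.35) and CDCA7 (0.06). Of the 3 that went the other way, LGALS9 was at 6.23, 5.58 and 6.72 CPM under the control label and at 1.88, 1.34 and 1.72 CPM under the TWIST1 shRNA label. UBA7 was at 42.1, 38.8 and 41.4 CPM and at 2.45, 2.97 and 2.21 CPM in the same order. F3 was at 108, 111 and 109 CPM and at 333, 308 and 294 CPM. FBLN5 was at 11.6, 12.1 and 12 CPM and at 13.7, 12.6 and 13.6 CPM.

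SPON2 was also called lower in all 5 clones, to differing extents. It was at 6.24, 8.79 and 7.27 CPM in WT. It fell to 0.566 ± 0.242 CPM (SD, n = 3) in TG1_1 and 0.413 ± 0.198 in TG2_2, and was at 2.08 ± 0.264 in TG3_2, 3.02 ± 0.387 in TG3_5 and 4.52 ± 0.714 in TG3_6. The log2 fold change in TG3_6 was −0.72 ± 0.18 SE (adjusted p = 0.000791, edgeR), and that call was lost without WT replicate B, where it was −0.57. In LoVo it was at 1.33, 0.790 and 1.46 CPM under the control label and at 2.03, 1.28 and 2.77 CPM under the other, and these values overlap. The log2 fold change of 0.78 ± 0.34 SE there (adjusted p = 0.0469, edgeR) was not called by DESeq2 or voom, nor without control replicate A or B or TWIST1 shRNA replicate 3, with values from 0.50 to 0.87 without a library.

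**Figure D5:**
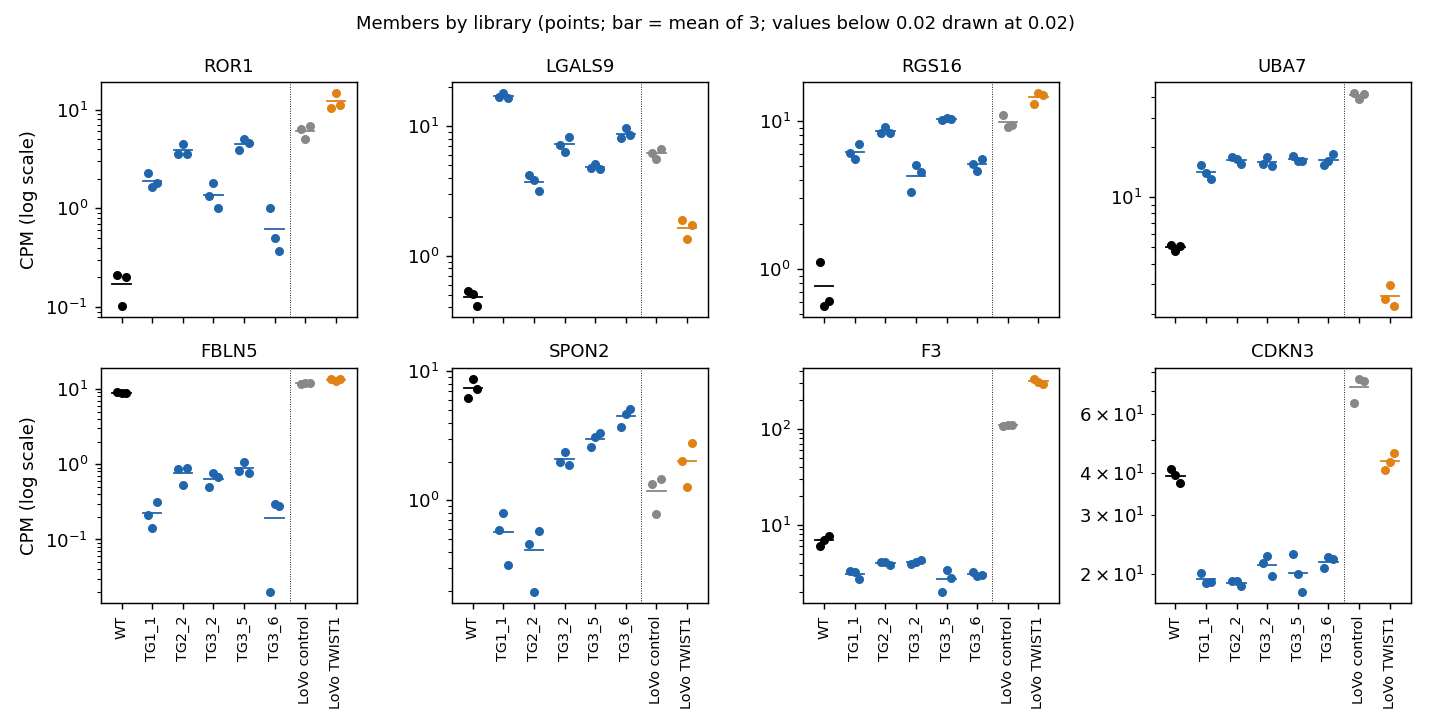
CPM (y axis, log scale) of 8 members in each library, by group (x axis, where LoVo TWIST1 stands for the TWIST1 shRNA label), with the mean of 3 as a bar and values below 0.02 drawn at 0.02. ROR1, LGALS9, RGS16 and UBA7 lie above WT in all clone libraries, and FBLN5, SPON2, F3 and CDKN3 lie below WT, while in LoVo LGALS9 and UBA7 are lower and F3 is higher under the TWIST1 shRNA label.

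In LoVo the members with the largest rises were close to 0 under the control label. ANTXR1, a receptor for anthrax toxin that binds collagen, had 4, 12 and 4 counts under that label and 1832, 1657 and 1670 under the TWIST1 shRNA label, a log2 fold change of 7.99 ± 0.15 SE (adjusted p = 6.58e-17, edgeR). GTSF1, a cofactor of piRNA silencing, had 9, 7 and 7 counts against 1913, 1725 and 1796. The lysyl oxidase gene LOXL2 went from 0.605, 0.691 and 0.560 CPM to 95.5, 101 and 115 CPM, and FKBP10, a collagen chaperone, from 1.27, 0.839 and 0.392 CPM to 82.1, 75.2 and 78.3 CPM. CMTM3, the adhesion molecule MCAM, SRPX2 and EGR3, an immediate early transcription factor, were the other 4 named by size. SRPX2 and EGR3 rest on 1 or 2 counts in each library labelled control, and 52.0% of the exon bases of SRPX2 overlap other genes.

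The members with the largest falls in LoVo included several enzymes. ALPG, an alkaline phosphatase, was at 222, 201 and 233 CPM under the control label and at 1.51, 1.11 and 1.83 CPM under the TWIST1 shRNA label, a log2 fold change of −7.19 ± 0.12 SE (adjusted p = 2.38e-17, edgeR). HPGD, which breaks down prostaglandins, went from 244, 280 and 256 CPM to 3.13, 3.55 and 3.04 CPM. AKR1C3, an aldo-keto reductase of steroids and prostaglandins, went from 166, 163 and 156 CPM to 4.49, 5.59 and 5.37 CPM. The lipase gene LIPG, the phosphatase gene PTPRR, the proteases CTSE and TMPRSS3, and FER1L6 made up the rest. The intestinal regulator CDX2, which is not a member, was at 257 ± 12.7 CPM under the control label and 31.3 ± 2.90 CPM under the TWIST1 shRNA label, and VIM at 108 ± 2.17 and 11.6 ± 2.20 CPM, so markers of both cell states moved with these results and their part in them was not tested.

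Some of these genes moved in different directions among the MDST8 clones. HPGD was called lower in TG2_2 (log2 fold change −1.51) and higher in TG1_1 (0.88), TG3_2 (2.14) and TG3_6 (1.57). MCAM was called lower in TG1_1 (−1.85) and TG2_2 (−1.02) and higher in TG3_5 (1.01) and TG3_6 (1.6). PTPRR was called lower in 3 clones, with log2 fold changes down to −2.48. ANTXR1 had log2 fold changes of 0.54 to 0.92 and was called higher in 4 clones. LOXL2 and FKBP10, at 339 and 342 CPM in WT, were called in none of the 5.

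Lists of related genes were read for how many members they held. Of the 26 protein-coding genes that the study named as TWIST1 targets, 13 were members (50%). A noncoding gene that it also named has no promoter in this set. The study chose that list from these same libraries and peaks, for a change in RNA together with a peak. Neither its share of members nor its calls are therefore independent. Of its 13 members, 5 were called higher in each clone, and 8, 8, 7, 8 and 6 lower in TG1_1, TG2_2, TG3_2, TG3_5 and TG3_6. Of all protein-coding genes tested, 11.4, 7.23, 10.4, 10.0 and 14.6% were called higher in these clones in that order. The shares called lower were 7.28, 6.48, 5.83, 7.10 and 11.2%. The list members called higher in every clone were ACTR3C, the DNA repair enzyme MGMT, the protocadherin PCDHGC3, PODXL2 and the death receptor TNFRSF21. MGMT was at 3.93 ± 0.386 CPM in WT and 6.89 ± 0.463 to 9.70 ± 0.672 CPM in the clones. PCDHGC3 shares 40.1% of its exon bases with other genes of its cluster and is uncertain. ASF1B, FOXL1, LPAR1, RFX2, SFXN2 and SLC7A1, with F3 and SPON2, had negative log2 fold changes in all clones, though ASF1B was not called in TG3_2, nor FOXL1 and LPAR1 in TG3_6. In LoVo, by the labels, 7 were called higher and 4 lower of 12 tested, and all 11 went against their direction in the clones. Of all protein-coding genes tested in LoVo, 24.9% were called higher and 26.3% lower. ACTR3C (log2 fold change −2.70), MGMT (−1.33), PODXL2 (−3.40) and TNFRSF21 (−1.51) were lower under the TWIST1 shRNA label. ASF1B (0.69), F3 (1.51), FOXL1 (2.0), LPAR1 (0.97), RFX2 (0.75), SFXN2 (1.99) and SPON2 (0.78) were higher, and SLC7A1 (0.58) was not called. TWIST1 itself ran against the LoVo labels, as given above.

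Other lists of TWIST1-related genes held few genes, to be read beside the 15.1% of all promoters that were members. Of 11 EMT transcription factors 2 were members (18.2%, ZEB1 and FOXC2), of 9 helix-loop-helix partners and ID inhibitors 0, and of 10 textbook TWIST1 targets 2 (20%, FN1 and YBX1). ZEB1 was at 46.4, 49.1 and 47.5 CPM in WT and 32.3 to 53.8 CPM in the clones and was called in none, and it was called lower in LoVo by the labels (log2 fold change −1.10). FOXC2 was at 9.12, 9.86 and 8.13 CPM in WT and was called lower in 4 clones, with log2 fold changes of −1.42 to −2.26, but not in TG3_5, where the log2 fold change was −0.19. FN1, the gene of fibronectin, was called higher in TG2_2, TG3_2 and TG3_5, by 0.59, 0.76 and 1.01, and had a log2 fold change of 0.00 in TG3_6. The call in TG2_2 was lost without WT replicate A or without TG2_2 replicate A. In LoVo FN1 was called lower by the labels (−0.93). YBX1 was called in none of the 6 comparisons.

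Among cell state and pathway lists, 4 of 22 epithelial genes were members (KRT19, KRT20, KRT8 and PKP3), 2 of 24 mesenchymal genes (COL1A1 and FN1), 3 of 15 WNT target and feedback genes (APCDD1, LGR5 and TCF7) and 3 of 18 genes of SPP1 and SPON2 signalling (CD44, ITGAV and SPON2). Of the 4 members among 33 mitosis and replication genes (ASF1B, CENPA, E2F1 and MCM5), 3, 3, 2, 4 and 2 were called lower in the clones in the order above, and all 4 were called higher in LoVo. The shares of all protein-coding genes called lower were 7.28, 6.48, 5.83, 7.10 and 11.2% in the clones in that order, and 24.9% were called higher in LoVo, and 4 genes are too few to set against them.

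Large families differed in how many promoters carried both peaks. Zinc finger genes of the ZNF series held 81 members of 508 (15.9%), close to the 15.1% of all promoters, and ribosomal protein genes 14 of 84 (16.7%). Olfactory receptor genes, of which 0.750% reached 1 CPM in MDST8 WT, held 24 of 400 (6.00%), and replication-dependent histone genes 4 of 70 (5.71%). Keratins held 9 of 55, collagens 6 of 44, clustered protocadherins 6 of 53 and HOX genes 4 of 39. Of the 14 ribosomal protein members, 9 were called lower in TG3_6, 1 in TG3_2 and 0 in the other clones, and 11 were called lower in LoVo, where 11.2% of all protein-coding genes tested were called lower in TG3_6, 5.83% in TG3_2 and 26.3% in LoVo. Of 73 ZNF members tested in MDST8, 13 were called lower and 6 higher in TG3_6, against 2 to 4 lower and 4 to 7 higher in the other clones. TG3_6 also had the most calls over all protein-coding genes tested, 11.2% lower beside 5.83 to 7.28% in the other clones.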

How the data were processed

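ChIP-seq of TWIST1 was made from 1 library per line. Per the labels and the study's methods, the authors trimmed reads with Trim Galore 0.6.6, aligned them with Bowtie2 2.4.5 to hg38 and called peaks with MACS2 2.2.7.1, keeping p below 0.05. Whether the input library served as control is not given in the sources used here. The deposited peak lists hold a score, a fold enrichment over local background, and −log10 p and q values. For RNA-seq, the authors aligned with HISAT2 2.1.0 and deposited raw counts per gene from featureCounts 2.0.0 on GENCODE 43, without use of strand.

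Promoters were 1000 bp to either side of the 5′ end of protein-coding genes on chromosomes 1 to 22 and X. The 5′ end was the outermost annotated one of each gene, which may not be the start in use in these cells. Biotypes came from GENCODE 44, which matched 62639 of 62703 genes. Any shared base counted as overlap. Genes with a geometric mean of at least 1 RPM (offset 1) were tested with edgeR 4.0.16 (quasi-likelihood test, TMM, Benjamini-Hochberg adjustment over all genes tested), with the 18 MDST8 libraries in one fit and the 6 LoVo libraries in another. The steps were tested on simulated data. CPM is scaled by TMM, and RPKM is also divided by exon length. DESeq2 1.42.0 and limma 3.58.1 were alternatives, beside other filters, scalings, windows and left-out libraries. Python 3.11.15 and pysam 0.24.0 were used. Intervals cover counting error only.

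Genes were named by fixed ranks: 10 by the weaker of the best peaks, 5 per line by RPKM, 8 in each direction among those called the same way in all clones, 8 in each direction by change in LoVo with a count in every library, members of the study's targets, EMT factors, helix-loop-helix partners and textbook targets, SPON2 and TWIST1, 3 to either side of the overlap rule, and 5 divergent pairs. Members and lists were chosen with earlier results of these data known. A gene that this rule names and a sequence are not reported here.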

Additional observations from a re-analysis of the deposited data

Results flagged for a closer look

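F3, LGALS9 and UBA7 moved one way in all 15 clone libraries against MDST8 WT and the other way in all 3 LoVo libraries labelled TWIST1 shRNA against those labelled control. F3 had a log2 fold change of 1.51 in LoVo and of −1.32 to −0.75 in the clones. LGALS9 had −1.90 in LoVo and 2.95 to 5.14 in the clones, and UBA7 had −4.00 in LoVo and 1.5 to 1.75 in the clones. The difference between the lines was not tested, and TWIST1 counts in LoVo ran against the labels.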

How the results depend on the processing

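The number of promoters with a peak in both lists rests on the window and the peak cutoff. It was 3013 as reported, 1301 with 500 bp to either side and 8234 with 3000 bp. With stricter peaks it was 269 at p of at most 0.001 in both lists and 0 at q of at most 0.05 in both. It was 2326 where a summit of each list had to lie inside the window, and 1402 where the peaks had to overlap each other. The 164 alternative counts of members called, over other filters, scalings, tools and left-out libraries, all stayed within 1.5 times the reported count. Without one library, members called higher ranged from 119 to 141 in TG2_2 and from 302 to 311 in TG3_6. With the replicate letter as a block, 222 members were called higher in TG1_1, against 223 without it. Same-lettered libraries did not deviate together (mean r = −0.0081, 3 of 45 pairs above 0.1), so the letters do not pair the samples. No paired analysis was possible for LoVo because its labels share no such numbers. Over all pairs of a named gene and an alternative, a call was lost 9 times under another method or filter and 11 times without one library, and no called value changed sign. The cause was not tested. Each peak list rests on 1 library, so no peak value has a replicate error.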

Other observations

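Families of near-identical genes were looked at after their values were seen. Of 26 USP17L genes 3 were members, 8 had a LoVo peak and 8 an MDST8 peak, and 0 reached 1 CPM in either line. Of 13 TAF11L genes 3 were members, and 0 reached 1 CPM in either line. Of the 5 apolipoprotein genes of the APOE cluster, all 5 were members, and 1 reached 1 CPM in each line.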
